A study of Mus musculus with 9 samples.

Results

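Bone morphogenetic proteins (BMPs) and growth and differentiation factors (GDFs) were followed in mouse fracture callus through 10 genes, taken by symbol from the 22054 genes measured. The ligand genes were Bmp2, Bmp4, Bmp5, Bmp6, Bmp7, Gdf5 and Gdf6, and the receptor genes were Bmpr1a, Bmpr1b and Bmpr2. None of the 9 that could be tested passed the test between treatments, and Gdf6 had too few counts to be tested. Levels varied mainly between single libraries. SR-717 replicate 1 held the lowest TPM of Bmp4, Bmp6, Bmp7 and Gdf5 and the highest of Bmpr2. It was also the lowest for Bmp2, at 3.42 beside 3.43 TPM in H-151 replicate 3.

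The study asked how STING, an innate immune adaptor that responds to cytosolic DNA through cGAMP, acts in early fracture healing. Male C57BL/6J mice, 7 weeks old by the labels, had the midshaft of the left femur broken and fixed with an intramedullary needle, and callus RNA was taken on day 7. From the day after surgery they received 200 μl by intraperitoneal injection each day for 1 week, holding 750 nmol of H-151, a STING inhibitor, or 30 mg/kg of SR-717, a STING activator, and the control group received PBS. Each of the 3 groups had 3 libraries, and all 9 came from fractured bone, so no group shows unbroken bone. The labels call the tissue bone, while their extraction text speaks of cell lines and the study's methods name callus. They call the replicates biosamples without saying that each was a separate mouse, and p-values below measure only the spread between these samples.

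BMP and GDF ligands are secreted dimers of the transforming growth factor β family. The ligands followed here bind type I receptors such as Bmpr1a and Bmpr1b together with type II receptors such as Bmpr2. The activated type I kinase phosphorylates Smad1, Smad5 and Smad9, which enter the nucleus with Smad4 and switch on genes such as Id1. In fracture repair these signals act on periosteal cells, chondrocytes and osteoblasts as soft callus turns to bone.

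The 3 most abundant members, Bmpr1a, Bmpr2 and Bmp6, and Bmp4, which moved with Bmp6, had promoter entries in RefSeq (GRCm38.p6). They are shown because these genes carry most of the values below. An entry was found for 6 of the 10 members, the other 2 being Bmp5 and Bmpr1b. Each window runs from 250 bases before to 50 bases after a start, on the strand of the gene, at chr14:34502497-34502796 (minus strand) for Bmpr1a, chr1:59764029-59764328 (plus) for Bmpr2, chr13:38345466-38345765 (plus) for Bmp6 and chr14:46390620-46390919 (minus) for Bmp4. Capitals mark GC boxes, GGGCGG on either strand.
Bmpr1a: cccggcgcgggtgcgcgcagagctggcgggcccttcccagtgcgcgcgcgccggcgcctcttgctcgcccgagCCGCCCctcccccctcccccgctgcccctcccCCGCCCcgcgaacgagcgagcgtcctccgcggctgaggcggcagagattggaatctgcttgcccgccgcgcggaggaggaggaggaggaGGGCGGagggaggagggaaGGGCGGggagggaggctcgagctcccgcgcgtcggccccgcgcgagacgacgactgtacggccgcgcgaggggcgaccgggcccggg
Bmpr2: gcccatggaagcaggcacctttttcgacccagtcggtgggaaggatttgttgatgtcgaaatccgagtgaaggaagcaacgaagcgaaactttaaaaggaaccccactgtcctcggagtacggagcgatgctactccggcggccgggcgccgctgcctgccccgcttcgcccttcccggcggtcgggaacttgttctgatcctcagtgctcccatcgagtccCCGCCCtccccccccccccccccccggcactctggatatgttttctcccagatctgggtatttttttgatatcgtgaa
Bmp6: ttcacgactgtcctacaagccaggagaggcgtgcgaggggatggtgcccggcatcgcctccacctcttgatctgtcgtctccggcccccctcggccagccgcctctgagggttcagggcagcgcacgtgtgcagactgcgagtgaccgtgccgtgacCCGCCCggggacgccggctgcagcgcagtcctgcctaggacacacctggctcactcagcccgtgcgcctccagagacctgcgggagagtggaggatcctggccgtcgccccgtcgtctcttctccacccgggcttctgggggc
Bmp4: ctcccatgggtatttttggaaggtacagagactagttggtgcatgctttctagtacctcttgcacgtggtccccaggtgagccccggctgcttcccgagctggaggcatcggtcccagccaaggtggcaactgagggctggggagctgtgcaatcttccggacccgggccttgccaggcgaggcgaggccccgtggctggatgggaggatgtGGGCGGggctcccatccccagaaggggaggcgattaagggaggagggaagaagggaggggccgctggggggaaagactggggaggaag

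A GC box stood in 35.7% of 32851 promoters of the same length. Bmpr1a held 4, while Bmpr2, Bmp6 and Bmp4 held 1 each, and Bmp5 and the 3 entries of Bmpr1b held 0. Bmpr1a carried 48 CG dinucleotides, more than 98.8% of promoters, against a median of 7. Bmp6 held 27, Bmpr2 23 and Bmp4 12, and the windows of Bmp5 and Bmpr1b held between 4 and 6. The letters GGCGCC, which SMAD proteins of the BMP branch can bind, were found in Bmpr1a and Bmpr2 and in 11.9% of all promoters, with no overlap with a GC box. A match of letters is a description of the sequence and not a binding site.

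By the authors' TPM values, which are scaled for gene length and library total, the receptors Bmpr1a and Bmpr2 were the most abundant members, with means of 16.0 ± 2.37 and 14.4 ± 8.27 TPM (SD, n = 9). Bmp6 led the ligands at 7.16 ± 3.57 TPM. Bmp4 (4.46 ± 1.03), Bmp2 (4.09 ± 0.638), Bmp5 (3.98 ± 0.944) and Gdf5 (3.87 ± 1.95) formed a close group in mean TPM. Bmp7 followed at 1.93 ± 1.09, Bmpr1b at 0.869 ± 0.360 and Gdf6 at 0.207 ± 0.104 TPM.

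Few neighbours in this order were separated beyond their spread. Bmpr1b exceeded Gdf6 in 9 of 9 libraries, Bmpr2 exceeded Bmp6 and Gdf5 exceeded Bmp7 in 8 of 9, and Bmp2 exceeded Bmp5 in 5 of 9. Bmpr1a exceeded Bmpr2 in 7 of 9 libraries, by 0.30 ± 0.55 on the log2 TPM scale (mean and SD of the difference). Without SR-717 replicate 1 the mean of Bmpr2 was 11.9 TPM, and Gdf5 (4.18 TPM) stood above Bmp2 (4.17) and Bmp5 (4.04). Bmp6 was the highest of the 7 ligands in 7 libraries, and Bmp5 was the highest in PBS replicate 1 and SR-717 replicate 1.

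**Figure D1:**
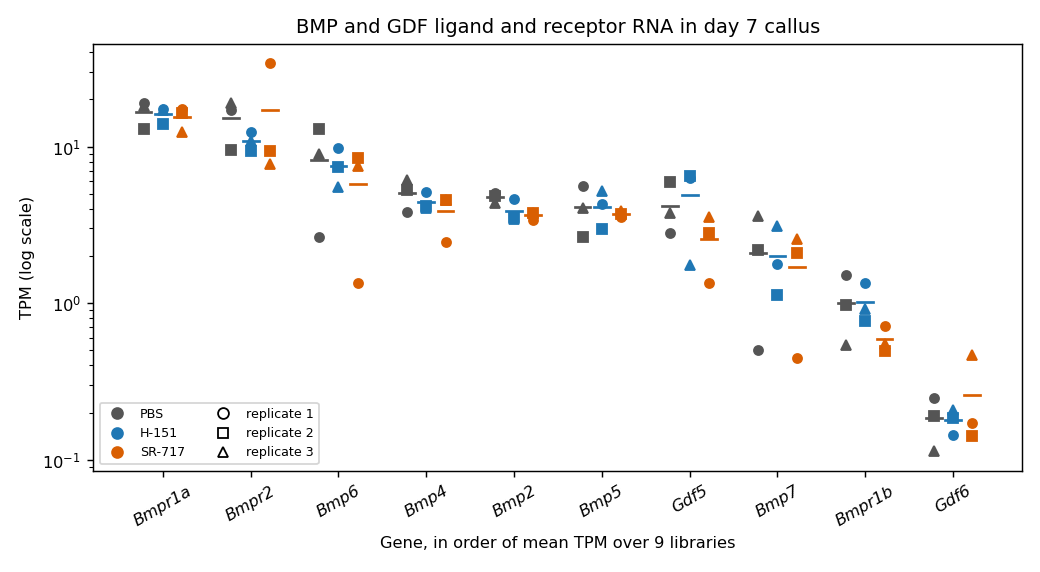
TPM of each of the 10 genes on a log axis, in order of mean TPM over 9 libraries. Each point is a library, colour gives the group, shape the replicate number and short bars the group means. Bmpr1a and Bmpr2 lie highest and Gdf6 lowest, and the SR-717 replicate 1 point lies apart for Bmp6 and Bmpr2.

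Bmp2, a ligand that fracture repair in adult bone requires, was the steadiest ligand. It stood at 5.02, 4.85 and 4.36 TPM in PBS replicates 1 to 3, at 4.65, 3.53 and 3.43 in H-151 and at 3.42, 3.75 and 3.77 in SR-717. In TPM, H-151 replicate 1 lay above the lowest PBS library, while every SR-717 library lay below all PBS libraries. In CPM, counts scaled to the library size with TMM factors, PBS held 8.91 ± 0.391, H-151 7.33 ± 0.718 and SR-717 7.34 ± 0.193 (SD, n = 3), and the PBS libraries lay above all 6 treated ones. The log2 fold change against PBS was -0.28 (SE 0.19, 95% interval -0.73 to 0.17) for SR-717 and -0.28 (SE 0.18, 95% interval -0.71 to 0.15) for H-151. Neither passed the quasi-likelihood test of edgeR (unadjusted p = 0.182 and 0.165, adjusted p = 1.00 in both). Both values rest on the same PBS libraries. Between SR-717 and H-151 the log2 fold change of Bmp2 was -0.01 (SE 0.18).

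Bmp6, a ligand made by hypertrophic chondrocytes among other cells, had the widest range of all members, 9.60-fold in TPM between the highest and the lowest library. It stood at 2.64, 12.9 and 9.00 TPM in PBS replicates 1 to 3, at 9.75, 7.42 and 5.48 in H-151 and at 1.34, 8.42 and 7.50 in SR-717. SR-717 replicate 1 and PBS replicate 1 were the lowest, and the other 7 libraries spanned 5.48 to 12.9 TPM, so the groups overlapped. Its log2 fold change was -0.48 (SE 0.76) for SR-717 against PBS, -0.11 (SE 0.51) for H-151 against PBS and -0.39 (SE 0.59) for SR-717 against H-151. The first value was -0.02 without SR-717 replicate 1 and -0.97 without SR-717 replicate 2.

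Libraries that share a replicate number deviated together between each drug group and PBS, so same-numbered libraries were also compared. The labels do not say what a number marks, so this pairing was inferred from these same data. Deviations were taken from the mean of each group of 3, so the 3 correlations of a comparison depend on each other. They cannot show by themselves that a number marks a pair, and the blocked values below rest on that assumption. In log2 CPM, Bmp6 was lower in SR-717 than in the PBS library of the same number in 3 of 3 pairs, by -0.76, -0.40 and -0.52. With the number as a block its log2 fold change was -0.56 (SE 0.19, unadjusted p = 0.0338, adjusted p = 0.999 in edgeR), short of 1.5-fold. The same pairs gave -0.85, -0.89 and -0.14 for Gdf5, whose blocked log2 fold change was -0.64 (SE 0.28, unadjusted p = 0.0725 in edgeR). Against H-151 the pairs of Bmp6 did not share a sign, at 1.76, -0.68 and -0.67 for H-151 minus PBS.

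Bmp4, a ligand of early bone and cartilage formation, followed Bmp6 across the libraries. It stood at 3.81, 5.31 and 6.09 TPM in PBS, 5.16, 4.15 and 4.03 in H-151 and 2.47, 4.53 and 4.59 in SR-717. SR-717 replicate 1 was again the lowest and PBS replicate 1 the second lowest, and the groups overlapped. Fitted log2 fold changes were -0.27 (SE 0.36) for SR-717 and -0.16 (SE 0.27) for H-151 against PBS, and -0.13 (SE 0.29) between the drugs. For SR-717 against PBS it was -0.03 without SR-717 replicate 1 and -0.45 without PBS replicate 1.

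Over 9 libraries, log2 TPM of Bmp4 and Bmp6 correlated with r = 0.91 (exact permutation p = 5.15e-04, adjusted p = 0.0186 over 36 pairs of members) and rho = 0.93 (exact permutation p = 7.50e-04, adjusted p = 0.0270). Without PBS replicate 3 and SR-717 replicate 1, the farthest from the median of Bmp4, r was 0.88, and without SR-717 replicate 1 and PBS replicate 1, the lowest for both genes, it was 0.72. It was 0.94 after removing group means and 0.93 after removing the means of replicate numbers. In log2 CPM, r of Bmp4 and Bmp6 was 0.866 over 9 libraries and 0.664 without SR-717 replicate 1. Without PBS replicate 1 as well it was 0.303, so how far the relation held without these 2 libraries depended on the scale. In CPM, Bmp4 and Bmp7 gave 0.875 over 9 libraries and 0.722 over the same 7. The exact tests of correlation treat the 9 libraries as exchangeable, although same-numbered libraries deviated together. In log2 TPM, no other of the 36 pairs of the 9 members that passed the filter reached an adjusted p under 0.05. On that scale Bmp6 and Bmp7 gave r = 0.82 over 9 libraries and -0.13 without PBS replicate 1 and SR-717 replicate 1. That relation rests on those 2 libraries.

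Bmp7, an osteogenic ligand also used as a recombinant protein in bone healing, stood at 0.504, 2.20 and 3.60 TPM in PBS, 1.78, 1.12 and 3.10 in H-151 and 0.446, 2.08 and 2.59 in SR-717. The 2 lowest values were again those of PBS replicate 1 and SR-717 replicate 1, from 17 and 19 expected counts. The log2 fold change ranged from -0.26 (SE 0.84, SR-717 against PBS) to -0.03 (SE 0.72, H-151 against PBS) over the 3 comparisons.

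Gdf5, which marks joint-forming mesenchyme and acts on cartilage, stood at 2.82, 5.90 and 3.75 TPM in PBS, 6.34, 6.53 and 1.75 in H-151 and 1.34, 2.80 and 3.57 in SR-717. H-151 replicates 1 and 2 were the highest of the 9 libraries and H-151 replicate 3 the second lowest. The log2 fold change was -0.61 (SE 0.43) for SR-717 against PBS, 0.21 (SE 0.48) for H-151 against PBS and -0.84 (SE 0.53, unadjusted p = 0.163 in edgeR) for SR-717 against H-151. Leaving out 1 library moved the first value to -0.32 (without SR-717 replicate 1) or -0.88 (without SR-717 replicate 3). Without H-151 replicate 3 the last value was -1.20 (SE 0.41, unadjusted p = 0.0301, adjusted p = 0.999 in edgeR), and without H-151 replicate 2 it was -0.54.

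Bmp5, a ligand of skeletal patterning, stood at 5.59, 2.66 and 4.06 TPM in PBS, 4.27, 2.96 and 5.17 in H-151 and 3.56, 3.71 and 3.88 in SR-717. The SR-717 libraries lay inside the range of both other groups, and the 3 log2 fold changes lay between -0.10 and 0.05. Gdf6, a close relative of Gdf5, lay between 0.113 and 0.463 TPM, from 4 to 15 expected counts a library. It failed the filter on low counts in all 3 comparisons, so no test of a difference is given for it.

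The type II receptor Bmpr2, which many BMP ligands share, stood at 17.1, 9.44 and 19.0 TPM in PBS, 12.4, 9.42 and 10.8 in H-151 and 34.0, 9.38 and 7.73 in SR-717. In TPM, SR-717 replicate 1 lay far above all other libraries and the other 2 SR-717 libraries were the lowest of the 9. The SR-717 group thus enclosed both other groups. In CPM, SR-717 replicate 2 (68.5) lay above PBS replicate 2 (61.3) and H-151 replicate 2 (64.0). The log2 fold change for SR-717 against PBS was 0.29 (SE 0.66), and -0.78 without SR-717 replicate 1. Between SR-717 and H-151 the value was 0.76 (SE 0.61), and -0.31 without that library. For H-151 against PBS it was -0.48 (SE 0.30, unadjusted p = 0.152 in edgeR). Without PBS replicate 2 the last value was -0.74 (SE 0.17, unadjusted p = 0.00481, adjusted p = 0.627 in edgeR).

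Bmpr2 was counted over a length 4.69 times that of the median gene, longer than 99.6% of genes. The 1430 longest tested genes had a median deviation from their means of 0.11 in SR-717 replicate 1 and -0.12 in replicate 3 of that group on the log2 CPM scale, against 1.54 and -0.75 for Bmpr2 itself. The part of gene length in the Bmpr2 values was not tested further.

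The type I receptor Bmpr1a, which chondrocytes and osteoblasts both use, was the steadiest receptor, with a highest library 1.53 times the lowest. It stood at 18.9, 12.9 and 18.0 TPM in PBS, 17.2, 13.9 and 17.1 in H-151 and 17.4, 16.3 and 12.4 in SR-717. The groups overlapped, and the 3 log2 fold changes lay between -0.02 and 0.03, with the widest 95% interval from -0.58 to 0.59. Bmpr1b, the type I receptor that GDF5 prefers, stood at 1.51, 0.975 and 0.539 TPM in PBS, 1.35, 0.769 and 0.921 in H-151 and 0.718, 0.496 and 0.550 in SR-717. Every SR-717 library lay below every H-151 library. The log2 fold change of Bmpr1b between them was -0.67 (SE 0.29, 95% interval -1.35 to 0.02, unadjusted p = 0.0563, adjusted p = 0.996 in edgeR), and -0.85 without SR-717 replicate 1 (unadjusted p = 0.0298, adjusted p = 1.00 in edgeR). Against PBS its log2 fold change was -0.48 (SE 0.48) for SR-717 and 0.18 (SE 0.45) for H-151, with overlapping groups.

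**Figure D2:**
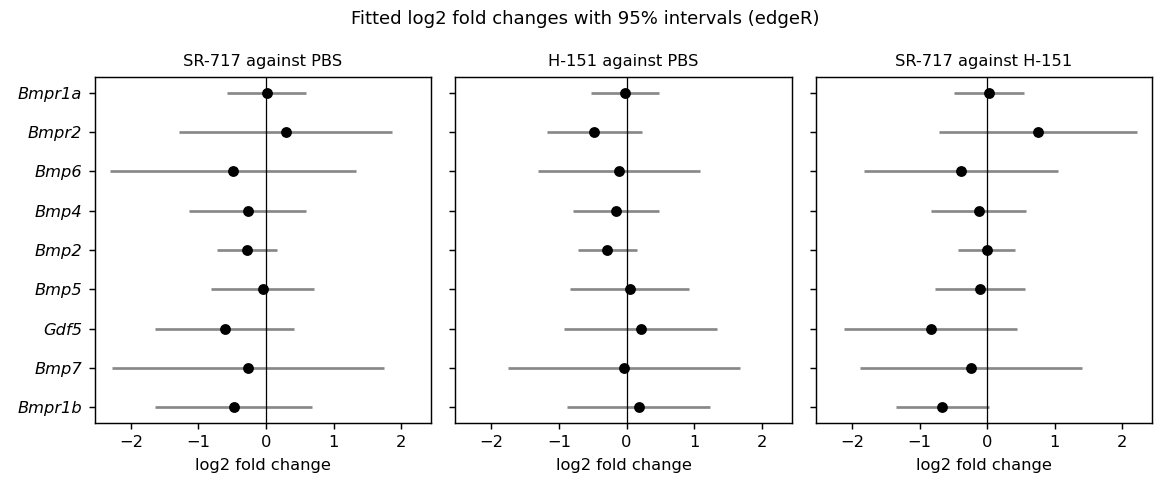
Log2 fold change (points) and 95% interval (lines) of the 9 genes that passed the filter, in 3 panels for the 3 comparisons. Every interval includes 0, the closest to leaving it out being Bmpr1b between SR-717 and H-151, whose interval ends at 0.02.

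Of the 10 members, 9 were tested in each comparison. In edgeR, 0 reached an adjusted p under 0.05, 0 an unadjusted p under 0.05, and 0 the study's thresholds of p under 0.05, taken as unadjusted, with a fold change of at least 1.5. The background was low as well. For SR-717 against PBS, an adjusted p under 0.05 was reached by 0% of the 14070 tested genes, an unadjusted one by 0.689% and the study's thresholds by 0.519%. For H-151 against PBS these shares were 0%, 0.646% and 0.426% of 14085 genes, and for SR-717 against H-151 they were 0%, 1.03% and 0.756% of 14151 genes. If no gene differed, an unadjusted p under 0.05 would by definition be reached by a share of 0.05. Each unadjusted share lay below that, so the lack of a call among members is weak evidence that they did not differ. Blocking on the replicate number, 443 genes in place of 73 passed the study's thresholds for SR-717 against PBS and 262 in place of 60 for H-151 against PBS, and none was a member. DESeq2's Wald test gave 0 members at either threshold too.

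Groups did not overlap in CPM for 1 of the 9 tested members in each comparison, Bmp2 against PBS in both cases and Bmpr1b between the drugs. Among all tested genes the share was 3.75% for SR-717 against PBS, 3.87% for H-151 against PBS and 5.18% for SR-717 against H-151. The fold change was below 0 for 7, 6 and 7 of the 9 members in that order, beside 47.8%, 55.8% and 46.6% of all tested genes. Median log2 fold changes of the members were -0.27, -0.03 and -0.13, beside 0.01, -0.02 and 0.02 over all tested genes.

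Across all genes, SR-717 replicate 1 stood farthest apart on the first principal component, which held 46.6% of the variance, with a score of 100.6 beside 38.8 for PBS replicate 1 and -28.8 to -4.03 for the other 7. Among members, SR-717 replicate 1 deviated from the mean log2 CPM by -1.96 for Bmp6, -1.59 for Bmp7, -1.17 for Gdf5, -0.72 for Bmp4 and 1.54 for Bmpr2. PBS replicate 1 deviated by -1.20 for Bmp6 and -1.61 for Bmp7. With both libraries left out, an alternative chosen after seeing the data, the log2 fold change of SR-717 against PBS was -0.43 (SE 0.26) for Bmp6, -0.53 (SE 0.32) for Gdf5, -0.27 (SE 0.39) for Bmp7, -0.19 (SE 0.29) for Bmp4 and -0.69 (SE 0.42) for Bmpr2.

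**Figure D3:**
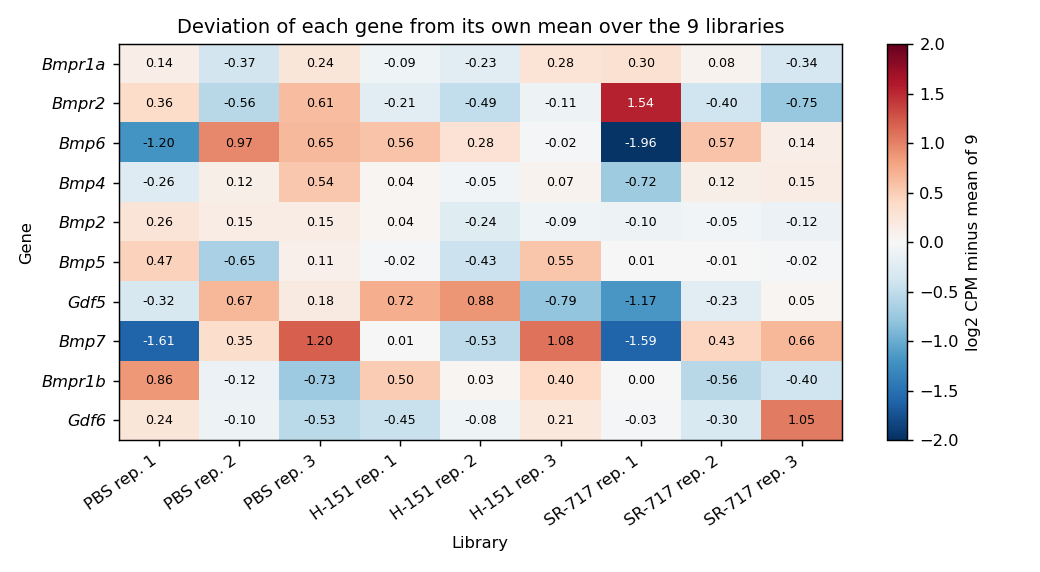
Log2 CPM of each gene minus its own mean over the 9 libraries, with genes in rows and libraries in columns, the value printed in each cell and blue below and red above the mean. SR-717 replicate 1 holds the lowest cell (Bmp6, -1.96) and the highest (Bmpr2, 1.54).

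The summed TPM of receptors over that of ligands reached 4.09 for SR-717 replicate 1 and 1.82 for PBS replicate 1, and lay between 0.686 and 1.24 in the other 7 libraries. In bulk callus, fewer cells of a type and less RNA per cell cannot be told apart.

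Marker genes of skeletal cells moved with these values. All 8 osteoblast, 8 chondrocyte and 4 hypertrophic chondrocyte markers were above 0 in every library labelled bone. The summed TPM of the chondrocyte markers was lowest in SR-717 replicate 1 and next lowest in PBS replicate 1, and ranged over 682 to 6677 in PBS, 1937 to 4961 in H-151 and 122 to 3322 in SR-717. The hypertrophic chondrocyte markers summed to 338 to 2050 TPM in PBS, 938 to 1498 in H-151 and 118 to 1406 in SR-717. The osteoblast markers summed to 3462 to 7669 TPM in PBS, 4758 to 6973 in H-151 and 1487 to 6400 in SR-717. The 6 neutrophil markers, all above 0, summed to 27748 TPM in SR-717 replicate 1 and to 1160 to 8750 in the other 8 libraries. The part of cell composition in the member values was not tested.

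Relations of 9 members with 16 marker lists were computed after the member values had been seen, in log2 TPM over 9 libraries, with p adjusted over the 144 relations. Both sides of a relation share the TPM scaling of a library, and the relations were not computed in CPM. For Bmp4 and Bmp6 the scale mattered. Without SR-717 replicate 1 and PBS replicate 1 their r was 0.72 in TPM and 0.303 in CPM. Bmp6 followed the chondrocyte markers with r = 0.98 (exact permutation p = 1.07e-04, adjusted p = 0.00774) and rho = 0.90 (exact permutation p = 0.00203, adjusted p = 0.0365). Without PBS replicate 1 and SR-717 replicate 1, the farthest from the median of that list, r was 0.85, and it was 0.99 after removing group means and 0.97 after removing the means of replicate numbers. Bmp4 followed the hypertrophic chondrocyte markers with r = 0.91 (exact permutation p = 8.32e-04, adjusted p = 0.0240) and rho = 0.88 (exact permutation p = 0.00308, adjusted p = 0.0443), and r was 0.66 without the same 2 libraries and 0.93 after removing the means of groups or of replicate numbers.

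Bmp7 followed the osteoblast markers with r = 0.90 (exact permutation p = 1.07e-04, adjusted p = 0.00774) and rho = 0.90 (exact permutation p = 0.00203, adjusted p = 0.0365), and r was 0.84 without the 2 libraries, 0.90 after removing group means and 0.77 after removing the means of replicate numbers. Gdf5 and the chondrocyte markers gave r = 0.81 (exact permutation p = 0.00426, adjusted p = 0.0876) and rho = 0.85 (exact permutation p = 0.00607, adjusted p = 0.0729), short of the threshold, and r was 0.81 without the 2 libraries. Bmpr2 and the chondrocyte markers gave r = -0.77 (exact permutation p = 0.0227, adjusted p = 0.159) over 9 libraries and 0.14 without the 2 libraries, and that relation rests on them.

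In all, 5 of the 144 relations had an adjusted p under 0.05 by r and 10 by rho, 4 of them by both. The fourth by both was Bmp6 with the hypertrophic chondrocyte markers, with r = 0.96 (exact permutation p = 4.33e-04, adjusted p = 0.0208) and rho = 0.93 (exact permutation p = 7.50e-04, adjusted p = 0.0360), and r was 0.73 without PBS replicate 1 and SR-717 replicate 1. By r only, Bmpr2 ran against the adipocyte markers, with r = -0.93 (exact permutation p = 7.19e-04, adjusted p = 0.0240) and -0.78 without PBS replicate 3 and SR-717 replicate 1. By rho only, Bmp7 ran with the osteoclast markers (0.93) and against the neutrophil (-0.93) and T cell markers (-0.88), Bmpr1a against the skeletal muscle (-0.90) and Schwann cell markers (-0.90), and Bmpr2 against the skeletal muscle markers (-0.90).

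**Figure D4:**
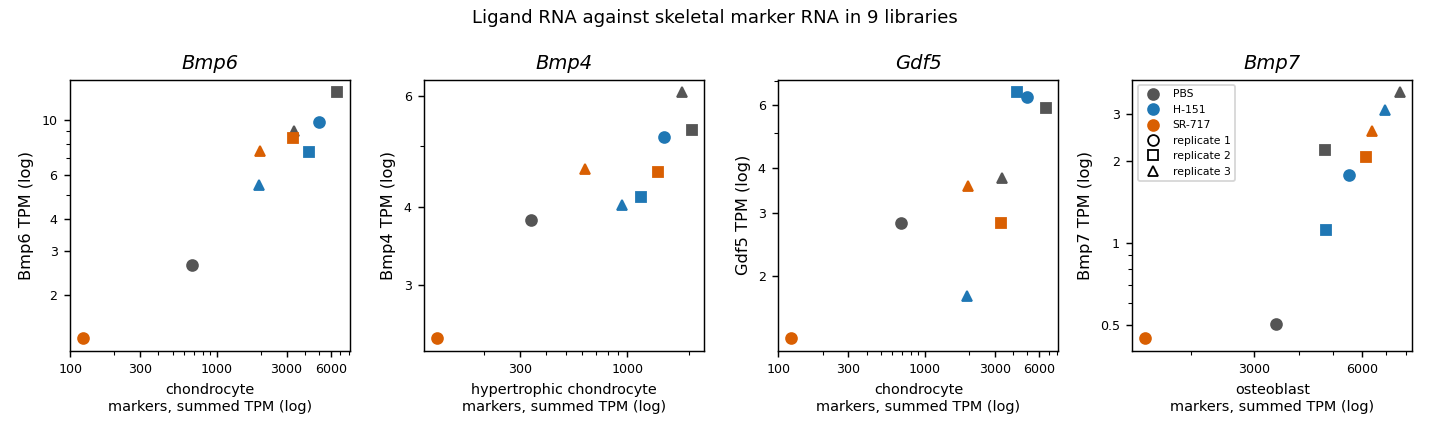
TPM of Bmp6, Bmp4, Gdf5 and Bmp7 against the summed TPM of chondrocyte, hypertrophic chondrocyte, chondrocyte and osteoblast markers, on log axes, with 1 point per library, colour for the group and shape for the replicate number. SR-717 replicate 1 lies lowest on both axes in all 4 panels, and the colours mix along each trend.

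The genes most like each member across the 9 libraries, by Pearson r of log2 CPM among 14293 other genes, had r between 0.88 and 0.99. Among them were Agap1, Or6c5 and Dnai4 for Bmp2, 2310022B05Rik, Olfml3 and Gtf2i for Bmp4, Yae1d1, Rbm48 and Sinhcaf for Bmp5, and Asap2 and Colgalt2 for Bmp6. For Bmp7 they were 4931414P19Rik, Ppfibp2 and Tbx2, and for Gdf5 they were Slc35b4, Fbn2 and Atf7. For the receptors they were Slc12a2, Acvr2a and Kctd12b with Bmpr1a, Rtf1, Gap43 and Gpr137c with Bmpr1b, and Ncoa7, Zeb2 and Atp13a3 with Bmpr2. Without SR-717 replicate 1, 7 of the 27 closest genes were again among the closest 3 of their member, including Acvr2a, itself a type II receptor of the family, for Bmpr1a. Without PBS replicate 1 as well, 2 of the 27 were, Slc12a2 for Bmpr1a and Atp13a3 for Bmpr2.

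Beyond the members, 63 other genes of the BMP and GDF family or the pathway were read from 5 lists. Of these, 53 passed the filter for SR-717 against PBS and 54 in each of the other comparisons. None reached an adjusted p under 0.05 in edgeR, and at an unadjusted p under 0.05 there were 0, 0 and 1. The 1 was Gdf3, a ligand with weak BMP activity of its own, which also passed the study's thresholds. It passed the filter on low counts in that comparison only through the H-151 libraries, where it was high, and failed it for SR-717 against PBS, so its call is given as a description. It stood at 0.521, 0.704 and 0.695 TPM in H-151, at 0.081, 0.273 and 0.359 in SR-717 and at 0.769, 0.277 and 1.27 in PBS. All SR-717 values lay below all H-151 values, with a log2 fold change of -1.39 (SE 0.53, unadjusted p = 0.0373, adjusted p = 0.996 in edgeR).

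Among the other ligands the most abundant were Gdf11 (12.4 ± 2.14 TPM, SD, n = 9), Bmp3 (7.66 ± 2.97) and Gdf10 (4.55 ± 1.59). Bmp3, which opposes osteogenic BMPs, had a mean above the 7.16 TPM of Bmp6 by less than either SD, and its log2 fold change was -0.15 (SE 0.54) for SR-717 and -0.16 (SE 0.41) for H-151 against PBS. Among the other receptors and co-receptors, the co-receptor Eng (125 ± 19.9 TPM), the iron-linked co-receptor Hjv (74.2 ± 28.7) and the type I receptor Acvr1 (37.9 ± 5.93) led. Hjv was lowest in PBS replicate 3 (25.9 TPM) and highest in SR-717 replicate 3 (122 TPM). The 6 skeletal muscle markers also had their lowest and highest summed TPM there, 5064 and 27781. The part of muscle RNA in the Hjv values was not tested. Median log2 fold changes of the receptor list were 0.12, 0.02 and 0.11 for SR-717 against PBS, H-151 against PBS and SR-717 against H-151.

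The leading extracellular inhibitors and modulators exceeded every member in mean TPM. Fstl1, a follistatin-like protein, stood at 495 ± 138 TPM, the protease Bmp1, which cleaves procollagen and chordin and is no BMP ligand, at 265 ± 38.2 and the antagonist Nbl1 at 131 ± 26.1 (SD, n = 9). In TPM, Bmp1 was at 308, 310 and 308 in PBS, 273, 224 and 240 in H-151 and 221, 224 and 274 in SR-717. The PBS libraries lay above all 6 treated ones, and the log2 fold change against PBS was -0.28 (SE 0.16, unadjusted p = 0.132 in edgeR) for SR-717 and -0.31 (SE 0.15, unadjusted p = 0.0876 in edgeR) for H-151. Of all tested genes, 3.75% did not overlap with PBS in CPM for SR-717 and 3.87% for H-151.

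Of the intracellular transducers, Ski, a repressor of SMADs, stood at 65.3 ± 9.57 TPM, Smad1 at 32.2 ± 3.36 and Smad4 at 31.0 ± 2.18 (SD, n = 9), and their log2 fold changes against PBS lay between -0.18 and 0.01. Of the target genes, Id3 stood at 388 ± 121 TPM, Id1 at 114 ± 21.8 and the osteoblast factor Sp7 at 112 ± 45.5. Id1 held 120, 143 and 138 TPM in PBS, 127, 93.0 and 94.4 in H-151 and 97.5, 85.7 and 130 in SR-717. In CPM all H-151 values of Id1 lay below all PBS values, with a log2 fold change of -0.34 (SE 0.15, 95% interval -0.69 to 0.01, unadjusted p = 0.0527, adjusted p = 1.00 in edgeR). Of all tested genes, 3.87% likewise did not overlap between H-151 and PBS in CPM. For SR-717 against PBS Id1 gave -0.27 (SE 0.19) with overlapping groups.

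The median log2 fold change of the 10 tested target genes was -0.26 for SR-717 and -0.22 for H-151 against PBS, where 8 and 7 of the 10 were below 0, and -0.03 between the drugs. Over all tested genes 47.8% and 55.8% were below 0 in these comparisons with PBS. Both comparisons with PBS share its libraries.

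**Figure D5:**
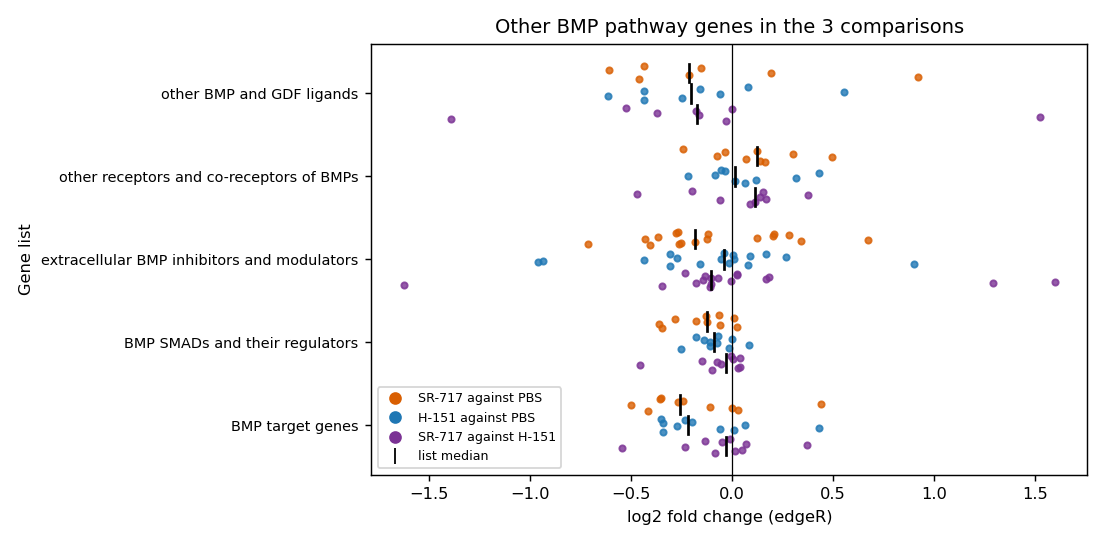
Log2 fold change of each tested gene (points) of the 5 pathway lists in the 3 comparisons (colours), with the list median as a black tick. Medians lie between -0.26 and 0.12, and 1 point, Gdf3 at -1.39 for SR-717 against H-151, passed the study's thresholds.

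On GRCm38 the members lie at chr2:133552159-133562885 (Bmp2, plus strand), chr14:46383520-46390669 (Bmp4, minus), chr9:75775364-75900310 (Bmp5, plus), chr13:38345107-38500302 (Bmp6, plus), chr2:172868012-172940321 (Bmp7, minus), chr2:155941023-155945367 (Gdf5, minus) and chr4:9844372-9862345 (Gdf6, plus). The receptors lie at chr14:34410734-34503341 (Bmpr1a, minus), chr3:141837136-142169425 (Bmpr1b, minus) and chr1:59763400-59879014 (Bmpr2, plus). Exons of an opposite-strand gene cover 46.7% of the exonic bases of Bmp5 (Gm26903), 40.3% of Gdf5 (Gm15557), 5.74% of Bmp6 (Txndc5), 4.57% of Bmpr1a (Gm17110) and 3.96% of Bmp4 (Gm15217). The libraries were strand-specific, but whether counting used strand is not stated, so reads of these overlaps cannot be assigned with certainty. Gm15557 was listed at 0 TPM in 8 libraries and at 0.154 in SR-717 replicate 2. Txndc5, which shares 224 exonic bases with Bmp6, stood at 194 (SR-717 replicate 1) to 342 TPM (H-151 replicate 2). Bmp6 itself lay between 1.34 and 12.9 TPM, and the part of Txndc5 reads in its counts was not tested. Gm26903, Gm17110 and Gm15217 were not among the genes measured.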

How the data were processed

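Poly(A)-selected, strand-specific callus libraries, 3 per group, were assigned to groups from their labels. The authors deposited expected counts per gene, which are not normalized and need not be whole, and TPM values scaled for gene length and library total. The submitters' processing notes name mm10, and the aligner, counter and annotation are not given in the sources used here. Libraries held 16987398 to 23272480 counts. No column of per-sample values was left unread.

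Expected counts were rounded, the one departure from a design written for counts (3168 genes had a count that was not whole). In R 4.3.3, edgeR 4.0.16 was fitted to all genes of the 6 libraries compared, with filterByExpr (count 10, total 15), TMM and the quasi-likelihood F test, from which standard errors were derived, and p was adjusted by Benjamini-Hochberg over all tested genes. CPM use TMM over 9 libraries, and log2 CPM a prior count of 2. All libraries were distinct, since the smallest chi-square per gene over the 36 pairs was 25.5. Fitting was tested on simulated data.

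Same-numbered libraries deviated together, with correlations of 0.65, 0.34 and 0.14 for SR-717 and PBS and 0.30, 0.49 and 0.50 for H-151 and PBS, all over 0.1, so the replicate numbers in the labels were taken as pairs there. The values for SR-717 and H-151 were 0.34, 0.06 and 0.08, and no pairing was assumed. What a number marks is not stated in the labels, so the pairs rest on these same data. Exact two-sided permutation tests were used for correlations.

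The 10 members, 5 pathway lists and 16 marker lists were chosen with earlier results of these data known. Named genes are the members, the 3 highest by mean TPM of each pathway list, any past the study's thresholds and the 3 most like each member, of which 1 is not reported here. Other gene names and overlaps were read from GENCODE M21 on GRCm38. Alternatives were DESeq2 1.42.0 (size factors and Wald test), limma 3.58.1 on log2(TPM + 1) and log2(TPM + 0.1), other count filters, all libraries in 1 fit, the block, a 2-fold threshold and each library left out.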

Additional observations from a re-analysis of the deposited data

How the results depend on the processing

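No member was called at an adjusted p under 0.05 under any alternative run. Among the 9 members past the filter, the only unadjusted p under 0.05 was that of Bmp6 under the replicate block. That leaves aside the fits that leave out libraries. With 3 libraries a group, intervals of Bmp6, Bmp7 and Bmpr2 span more than a 2-fold change in both directions for SR-717 against PBS, and depth limits Gdf6. The cause of the changes below was not tested except where fewer genes or libraries entered by construction.

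For SR-717 against PBS, the genes past the study's thresholds numbered 73, and 138 with DESeq2, 194 with no filter on low counts, 37 at a mean count of at least 50, 176 with all libraries in 1 fit, 443 with the replicate block, 41 at 2-fold and 118 without SR-717 replicate 1 and PBS replicate 1. For H-151 against PBS they numbered 60, and 127 with no filter, 28 at a mean count of at least 50, 262 with the block and 33 at 2-fold. For SR-717 against H-151 they numbered 107, and 209 with DESeq2 (which also gave 1 gene at an adjusted p under 0.05), 223 with no filter, 61 at a mean count of at least 50, 171 in 1 fit and 69 at 2-fold. Leaving out 1 library gave 95 (PBS replicate 3) to 319 (SR-717 replicate 3), 43 (H-151 replicate 2) to 698 (PBS replicate 2) and 64 (H-151 replicate 2) to 661 (SR-717 replicate 3) in that order. Members past the study's thresholds numbered 0 in every fit of SR-717 against PBS, 0 to 1 for H-151 against PBS (Bmpr2 without PBS replicate 2) and 0 to 1 for SR-717 against H-151 (Gdf5 without H-151 replicate 3, Bmpr1b without SR-717 replicate 1). The block changed no call of a member, and gave -0.67 for Bmpr1b between the drugs.

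Log2 fold changes changed sign in 19 values, all smaller than their errors except Bmpr2 without both libraries. Under the block they were 0.0168 for Bmp5 (SR-717 against PBS), and 0.0717 for Bmp6 and 0.13 for Bmp7 (H-151 against PBS). On log2(TPM + 1) and log2(TPM + 0.1) they were -0.10 and -0.11 for Bmpr1a and -0.0850 and -0.10 for Bmpr2 (SR-717 against PBS), 0.0721 and 0.12 for Bmp6 and 0.0427 and 0.17 for Bmp7 (H-151 against PBS), and -0.0714 and -0.0760 for Bmpr1a (SR-717 against H-151). For Bmp2 between the drugs they were 0.0014 with DESeq2 size factors, 0.0019 with DESeq2 and 0.0024 in 1 fit. Without SR-717 replicate 1 and PBS replicate 1 they were 0.23 for Bmp5, -0.0645 for Bmpr1a and -0.69 for Bmpr2.

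Leaving out 1 library also turned signs, and the ranges for SR-717 against PBS were -0.31 to 0.22 for Bmp5, -0.73 to 0.45 for Bmp7, -0.16 to 0.16 for Bmpr1a, -0.78 to 0.0913 for Bmpr1b and -0.78 to 0.66 for Bmpr2. For H-151 against PBS they were -0.32 to 0.0773 for Bmp4, -0.26 to 0.33 for Bmp5, -0.52 to 0.31 for Bmp6, -0.63 to 0.67 for Bmp7, -0.0764 to 0.58 for Gdf5, -0.18 to 0.10 for Bmpr1a and -0.12 to 0.75 for Bmpr1b. For SR-717 against H-151 they were -0.0758 to 0.0682 for Bmp2, -0.27 to 0.11 for Bmp4, -0.31 to 0.20 for Bmp5, -0.88 to 0.0665 for Bmp6, -0.61 to 0.35 for Bmp7, -0.12 to 0.18 for Bmpr1a and -0.31 to 1.13 for Bmpr2.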
